A study of Homo sapiens and Mus musculus with 10 samples.

Results

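The mitochondrial genome encodes 7 subunits of respiratory complex I, and their transcripts were followed here in A375 cells, an established human melanoma line. The members were MT-ND1, MT-ND2, MT-ND3, MT-ND4, MT-ND4L, MT-ND5 and MT-ND6, taken by name, and all 7 were found among the 63140 gene rows of the human expression table. Cells exposed to LL-37 at 80 µg/mL for 24 h (LL-37, n = 3) were compared with cells left without peptide for the same time (Ctrl, n = 3), in biological triplicate per the series text. LL-37, an antimicrobial peptide, is released from the cathelicidin protein, and the comparison asks what it does to the transcripts of melanoma cells. The labels give no genetic change in either group, and the mouse tumour libraries of the series were not used here. Expression was given as TPM (transcripts per 1000000), a share of the library that is corrected for the length of each transcript. This correction does not cover differences in capture or in how shared reads are split, so levels of different genes are compared as TPM only. The members were selected on their TPM in these same LL-37 and Ctrl libraries, so their differences between the groups are given as a description without a test.

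Complex I (NADH dehydrogenase) is the entry point of electrons from NADH into the respiratory chain, and it pumps protons across the inner mitochondrial membrane. Its mitochondrially encoded subunits form the core of the membrane arm, while the arm that binds NADH is made from nuclear genes. Human mitochondrial DNA is transcribed from both strands into long precursors that are cut at tRNAs. The transcript of the heavy strand carries most mRNAs, and that of the light strand carries MT-ND6 as its only mRNA. Most mitochondrial mRNAs have short poly(A) tails, whereas human MT-ND6 mRNA is known for lacking a regular one. The libraries were made with a kit for stranded mRNA, so what share of MT-ND6 RNA they captured was not measured.

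MT-ND6 (ENSG00000198695) lay on the minus strand of the mitochondrial chromosome at chrM:14149-14673, and the other 6 lay on the plus strand between 3307 and 14148 (GRCh38, GENCODE 29). Each had 1 transcript, with lengths of 297 bases for MT-ND4L, 346 for MT-ND3, 525 for MT-ND6, 956 for MT-ND1, 1042 for MT-ND2, 1378 for MT-ND4 and 1812 for MT-ND5. The first 120 bases of MT-ND6 (chrM:14554-14673, minus strand) and of its plus-strand neighbour MT-ND5 (chrM:12337-12456, plus strand) are shown to contrast the base composition of transcripts from either strand, with runs of GGG or CCC or longer in capitals.
MT-ND6: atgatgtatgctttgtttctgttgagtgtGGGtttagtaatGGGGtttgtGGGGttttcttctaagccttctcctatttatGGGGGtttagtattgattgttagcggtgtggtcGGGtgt
MT-ND5: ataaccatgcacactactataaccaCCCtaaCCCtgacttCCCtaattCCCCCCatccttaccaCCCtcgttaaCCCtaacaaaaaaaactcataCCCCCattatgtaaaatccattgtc

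The MT-ND6 stretch held 5 runs of G and 0 runs of C, and the MT-ND5 stretch held 0 runs of G and 7 runs of C. CCC read on a transcript is GGG on the opposite strand, so these counts cover both strands. As background, the first 120 bases of 11517 protein-coding transcripts of tested genes held GGG in 91.1% and CCC in 85.8%. Over its whole length MT-ND6 was 35.6% G and 7.05% C, with 19 runs of GGG or longer and 0 runs of CCC. The other 6 members were 9.50% to 12.1% G and 29.5% to 35.98% C, with 0 to 5 runs of GGG each. The same split held against the other mitochondrial mRNAs, since the remaining 12 of the 13 protein genes had 6.28% to 16.2% G.

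**Figure D1:**
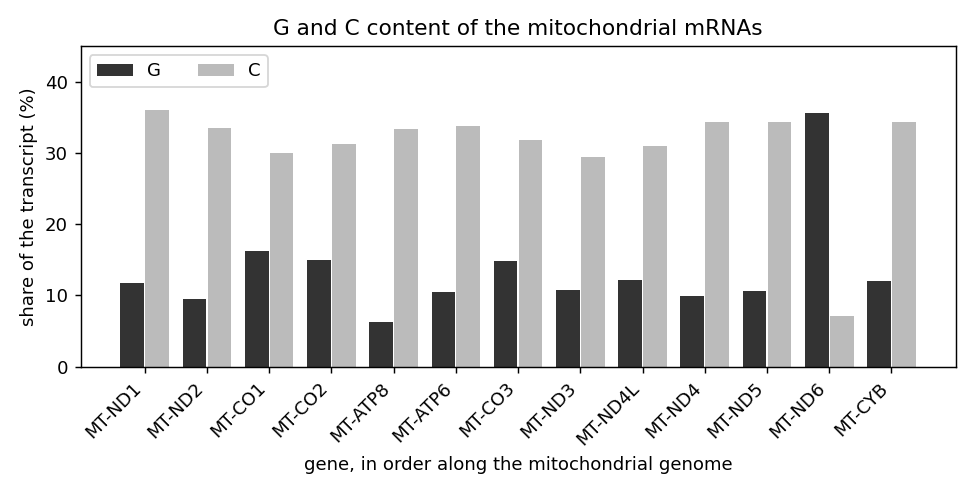
Share of G (dark bars) and of C (light bars) in the transcripts of the 13 mitochondrially encoded protein genes, in percent, with genes in their order along the mitochondrial genome (GENCODE 29). MT-ND6 alone holds more G (35.6%) than C (7.05%).

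MT-ND4L and MT-ND4 are read from a shared mRNA, and their annotated transcripts overlap by 7 bases, which are in capitals in the end of MT-ND4L (chrM:10727-10766) and the start of MT-ND4 (chrM:10760-10799), both on the plus strand.
MT-ND4L: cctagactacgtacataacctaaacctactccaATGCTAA
MT-ND4: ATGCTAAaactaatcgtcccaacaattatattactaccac

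Reads over that stretch belong to both genes, so the split between them depends on the quantification. Copies of mitochondrial genes in the nuclear genome can also share reads with the members. Of 217 rows named as such copies of these genes, 207 were at 0 in every library. The summed level of all 217 was 0.30 to 2.23 TPM per library. The most abundant copies were MTND1P23, at 0.63, 0.00 and 1.08 TPM in LL-37 libraries and 0.00, 0.44 and 1.51 TPM in Ctrl libraries, and MTND2P28, at 0.90, 0.47 and 0.15 TPM in LL-37 and 0.30, 0.14 and 0.08 TPM in Ctrl. The third, MTND5P42, was at 0.28 TPM in LL-37 replicate 1 and at 0 in the other libraries.

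Of the 6 libraries, LL-37 replicate 3 was the least like the rest. Its log2(TPM + 1) values correlated with theirs at 0.949 to 0.963, against 0.985 to 0.992 among the others, and 12991 genes reached 1 TPM in it, where the others had 14304 to 14555. Transcripts of 5000 bases or more were lower in it, with a median log2 difference from the Ctrl mean of -1.04, and those under 1000 bases had a median of -0.07. In the other LL-37 libraries these medians were between -0.05 and 0.04. Mitochondrially encoded genes together took 4.38%, 4.09% and 1.84% of TPM in LL-37 libraries and 3.77%, 3.47% and 3.55% in Ctrl libraries. The fits were therefore repeated without it, and its part in the results was not tested beyond that. The summed level of 10 melanoma line markers was 1513 to 2815 TPM in LL-37 and 2672 to 2942 TPM in Ctrl, most of it the general mesenchymal gene VIM, at 1223 to 2402 TPM. Among them the neural crest factor SOX10 was at 147 to 387 TPM in all libraries, the melanocyte factor MITF was at 1.75 to 5.45 TPM the pigment gene TYR was at 0, and the pigment cell genes MLANA, PMEL and DCT were at 0 to 1.25 TPM. Of 8 keratinocyte markers, 3 (KRT1, DSG3 and TP63) were at 0 in every library, and the summed level of the 8 was 21.3 to 26.8 TPM in LL-37 and 28.8 to 29.98 TPM in Ctrl, most of it KRT10. The summed levels of 6 fibroblast, 5 leukocyte and 4 endothelial markers were 3.34 to 7.97, 22.6 to 41.8 and 0.94 to 3.27 TPM in LL-37, against 7.13 to 8.02, 35.8 to 42.98 and 2.08 to 2.56 TPM in Ctrl. Most of the leukocyte sum was CD68, a lysosomal glycoprotein gene, while the leukocyte surface gene PTPRC was at most at 0.07 TPM.

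MT-ND6, the light-strand subunit gene, was higher in every LL-37 library than in any Ctrl library. Its levels were 144.2, 137.5 and 55.7 TPM in LL-37 and 30.9, 28.1 and 21.6 TPM in Ctrl. The groups did not overlap, and LL-37 replicate 3 lay between the other LL-37 libraries and Ctrl. In bulk RNA, a change in the number of cells that hold a transcript and a change in its amount per cell cannot be told apart. The mean was 112.5 ± 49.3 TPM with LL-37 and 26.8 ± 4.75 TPM in Ctrl (SD, n = 3 each), a ratio of 4.19. On the log2(TPM + 1) scale, which averages logs and understates changes of low genes, the change was 1.92 ± 0.38 (SE). The SE of this and every other log2 change is the one moderated by limma. Without LL-37 replicate 3 the change was 2.36 ± 0.13, and the mean of the remaining LL-37 libraries was 5.25 times the Ctrl mean. In both fits MT-ND6 had the second highest log2 change (rank 2) of 14399 tested genes.

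**Figure D2:**
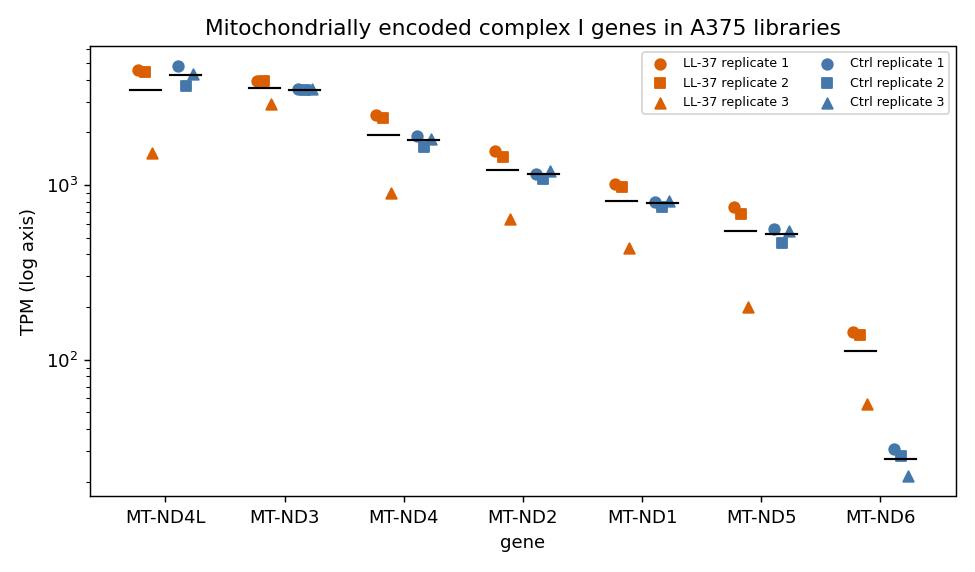
TPM (log axis) of the 7 mitochondrially encoded complex I genes in the 3 LL-37 libraries (orange) and the 3 Ctrl libraries (blue), with black lines at the group means and genes ordered by their Ctrl mean. MT-ND6 is at 55.7 to 144.2 TPM in LL-37 and at 21.6 to 30.9 TPM in Ctrl, without overlap, while the orange triangle of LL-37 replicate 3 is the lowest point of each of the other 6 genes.

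The 6 heavy-strand members had like patterns over the libraries, and in LL-37 replicates 1 and 2 all but MT-ND4L were above every Ctrl library. MT-ND5, the largest of the subunits encoded there, had 748, 683 and 201 TPM in LL-37 libraries and 559, 463 and 546 TPM in Ctrl libraries. Its LL-37 replicates 1 and 2 were above every Ctrl library and replicate 3 was below every one. MT-ND4, a proton-pumping subunit gene, was at 2512, 2404 and 894 TPM with LL-37 and at 1906, 1655 and 1835 TPM in Ctrl. For MT-ND2, a subunit of the same antiporter-like kind, the levels were 1567, 1454 and 641 TPM in LL-37 and 1160, 1082 and 1209 TPM in Ctrl. MT-ND1, whose product lies where the membrane arm meets the other arm, had 1016, 973 and 436 TPM in LL-37 and 804, 744 and 811 TPM in Ctrl. These genes shared 1 pattern, in which LL-37 replicates 1 and 2 were the highest libraries and LL-37 replicate 3 the lowest.

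MT-ND3, one of the small core subunit genes, deviated least in LL-37 replicate 3, with 3955, 3946 and 2921 TPM in LL-37 and 3549, 3490 and 3526 TPM in Ctrl. MT-ND4L, whose product is another small core subunit, was at 4557, 4445 and 1520 TPM in LL-37 and at 4779, 3673 and 4320 TPM in Ctrl. Its LL-37 replicates 1 and 2 lay within the Ctrl range, unlike those of the other 5 heavy-strand members. With all libraries the log2 changes of the 6 were -0.43 ± 0.42 for MT-ND4L, -0.15 ± 0.48 for MT-ND5, -0.06 ± 0.32 for MT-ND1, -0.03 ± 0.39 for MT-ND4, -0.02 ± 0.33 for MT-ND2 and 0.02 ± 0.13 for MT-ND3 (SE). Each was smaller than its standard error or close to it. Without LL-37 replicate 3 the changes were 0.09 ± 0.10 for MT-ND4L, 0.17 ± 0.04 for MT-ND3, 0.34 ± 0.06 for MT-ND1, 0.39 ± 0.06 for MT-ND2, 0.45 ± 0.07 for MT-ND4 and 0.46 ± 0.09 for MT-ND5. The sign of the log2 change of 5 of the 6 therefore turned with that library. That of MT-ND4 also turned without Ctrl replicate 1 (0.01), and that of MT-ND2 without Ctrl replicate 3 (0.02). By mean TPM with all libraries, LL-37 was at 1.03 (MT-ND1), 1.06 (MT-ND2), 1.02 (MT-ND3), 1.08 (MT-ND4) and 1.04 (MT-ND5) times Ctrl. Only MT-ND4L was lower on that measure, at 0.82 times. Over all tested genes the median change was -0.20 in the fit of 6 libraries and 0.00 when LL-37 replicate 3 was left out, so 5 of the 6 were above the median of all genes in the first case and all 6 in the second. Median-of-ratios scaling put 5 of the 6 above 0 with all libraries, and quantile normalization put 2 above 0. MT-ND6 was at 2.17 and 2.09 under these scalings, against 1.92 in the main fit.

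**Figure D3:**
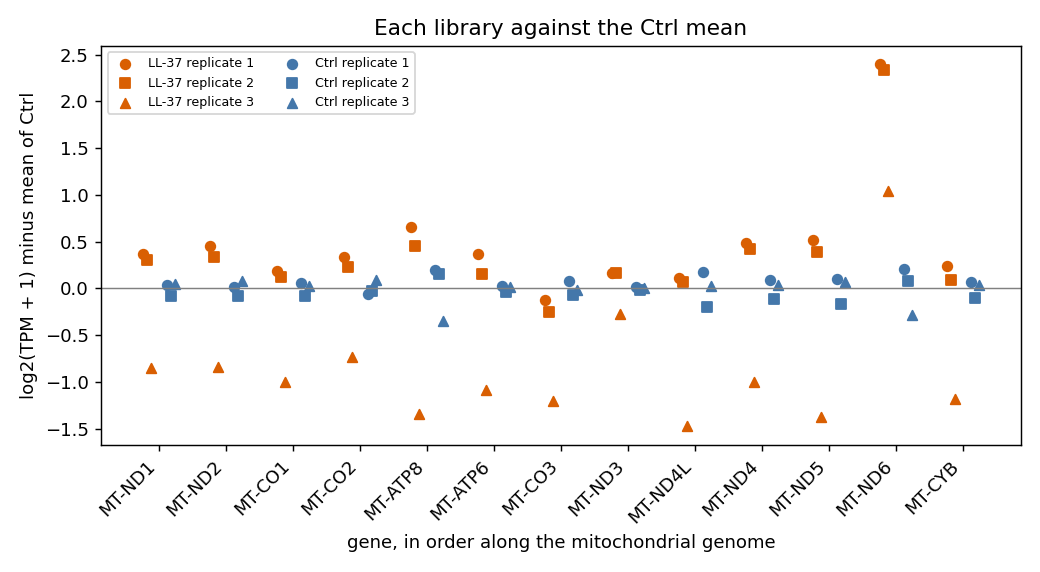
Difference of each library's log2(TPM + 1) from the Ctrl mean for the 13 mitochondrially encoded protein genes, in genome order, with LL-37 libraries in orange and Ctrl libraries in blue. LL-37 replicate 3 (orange triangles) is below 0 for every gene except MT-ND6, where it is at 1.04 and the other LL-37 libraries are at 2.40 and 2.33.

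Over all genes, 0 of 14399 tested (0.0%) passed a Benjamini-Hochberg adjusted p under 0.05 in limma's moderated test, while 363 (2.52%) had an unadjusted p under 0.05. Without LL-37 replicate 3, 17 genes passed (0.118%) and 1298 (9.01%) had an unadjusted p under 0.05. Calls for the 7 members are not given, because the members were selected on the same values. The groups did not overlap for 1 member with all libraries, MT-ND6, which was higher with LL-37; this held in the same direction for 2.13% of tested genes. Without LL-37 replicate 3 it held for 6 members, all but MT-ND4L, all of them higher with LL-37, against 12.3% of tested genes in that direction and 25.1% in either. Nothing is read from these member counts, for the same reason.

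A ratio within a library does not depend on the library total. The ratio of MT-ND6 to the mean of the other members set LL-37 replicate 3 beside the other LL-37 libraries, though ratios to single members did not all do so. Per 1000 TPM of the mean of the 6 heavy-strand members, MT-ND6 had 60.3, 59.3 and 50.5 TPM in LL-37 libraries and 14.5, 15.2 and 10.6 TPM in Ctrl libraries. The lowest LL-37 value was 3.33 times the highest Ctrl value. The mean was 56.7 ± 5.39 with LL-37 and 13.4 ± 2.48 in Ctrl (SD, n = 3 each), a ratio of 4.23, and without LL-37 replicate 3 the ratio was 4.46. Against its genome neighbour MT-ND5, MT-ND6 had 19.3, 20.1 and 27.7 TPM per 100 TPM in LL-37 and 5.52, 6.06 and 3.95 in Ctrl. Against MT-CYB, the cytochrome b gene on its other side, it had 8.87, 9.45 and 9.20 TPM per 100 TPM in LL-37 and 2.15, 2.19 and 1.53 in Ctrl. Its ratio to MT-ND3 was 0.0365, 0.0348 and 0.0191 in LL-37 and 0.00869, 0.00804 and 0.00612 in Ctrl. There LL-37 replicate 3 was well below the other LL-37 libraries, while against MT-ND5 it was above them. The strand setting of the quantification is not given in the sources used here, and with a setting that ignores strand, plus-strand RNA reaching across the MT-ND6 gene could not be told apart from MT-ND6.

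All 6 ratios of MT-ND6 to another member were apart between the groups, with the mean ratio 3.89 (to MT-ND2) to 5.20 (to MT-ND4L) times as high in LL-37 as in Ctrl. These 6 ratios share MT-ND6 as numerator. How often ratios over all genes were apart was not computed, so nothing is read from the counts of ratios given here. Among the 10 ratios between heavy-strand members other than MT-ND4L, 0 were apart with all libraries. That rested on LL-37 replicate 3, since without it several were apart and others, such as MT-ND4 to MT-ND5, still overlapped. MT-ND3 to MT-ND4, for example, was 1.57 and 1.64 in LL-37 replicates 1 and 2 and 1.86, 2.11 and 1.92 in Ctrl. With all libraries, MT-ND4L was the other member with ratios that were apart. Its ratio to MT-ND4, with which it shares an mRNA, was 1.81, 1.85 and 1.70 in LL-37 and 2.51, 2.22 and 2.35 in Ctrl, without overlap, so that LL-37 libraries had 0.757 times the Ctrl ratio. Its ratios to 4 of the other 5 heavy-strand members were lower in LL-37 without overlap. The exception was the ratio to MT-ND3, which overlapped at 1.15, 1.13 and 0.520 in LL-37 and 1.35, 1.05 and 1.23 in Ctrl, with LL-37 replicate 3 far below the rest. Among the heavy-strand members, MT-ND3 has the shortest transcript after MT-ND4L, and MT-ND5 has the longest. The ratio of MT-ND3 to MT-ND5 was 5.29 and 5.78 in LL-37 replicates 1 and 2. It was 14.5 in LL-37 replicate 3, against 6.35, 7.54 and 6.45 in Ctrl. LL-37 replicate 3 was thus unlike the others within the heavy-strand group as well, and these values stand beside its lower level of long transcripts over all genes. MT-ND2 over MT-ND1 differed little between any libraries, at 1.54, 1.49 and 1.47 in LL-37 and 1.44, 1.45 and 1.49 in Ctrl.

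**Figure D4:**
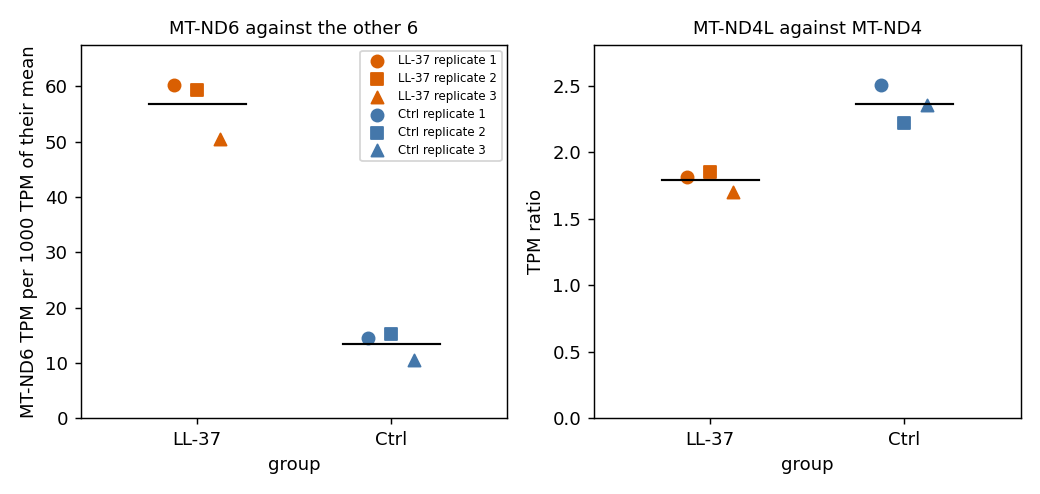
Left, MT-ND6 TPM per 1000 TPM of the mean of the other 6 mitochondrially encoded complex I genes, and right, the ratio of MT-ND4L to MT-ND4 TPM, in each LL-37 library (orange) and Ctrl library (blue), with black lines at the group means. MT-ND6 is at 50.5 to 60.3 in LL-37 and 10.6 to 15.2 in Ctrl, and the MT-ND4L ratio is at 1.70 to 1.85 in LL-37 and 2.22 to 2.51 in Ctrl.

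By TPM, the members ran over a wide range. MT-ND4L and MT-ND4 share an mRNA yet differed in TPM, so this order need not be one of RNA molecules. In Ctrl the order was MT-ND4L (4257 ± 556 TPM), MT-ND3 (3522 ± 29.7), MT-ND4 (1799 ± 129), MT-ND2 (1150 ± 64.3), MT-ND1 (786 ± 36.7), MT-ND5 (523 ± 52.3) and MT-ND6 (26.8 ± 4.75), with no overlap between any neighbours in that order (SD, n = 3). In LL-37 the means were 3607 ± 594 TPM for MT-ND3, 3507 ± 1722 for MT-ND4L, 1937 ± 905 for MT-ND4, 1221 ± 505 for MT-ND2, 808 ± 323 for MT-ND1, 544 ± 299 for MT-ND5 and 112.5 ± 49.3 for MT-ND6 (SD, n = 3). There the only neighbours whose ranges stayed apart were MT-ND5 and MT-ND6. With LL-37 replicate 3 left out, the LL-37 order was the Ctrl order, again with no overlap between neighbours. The 7 genes together made up 34.1%, 35.5% and 37.9% of the TPM of the 13 mitochondrial mRNAs in LL-37 libraries and 35.2%, 33.2% and 35.8% in Ctrl libraries. That share was of similar size in both groups, while MT-ND6 made up a larger part of it in LL-37. Over the 6 libraries, the log2 levels of the 6 heavy-strand members correlated with each other at 0.886 to 0.998 and with MT-ND6 at 0.04 to 0.48, values that share the deviation of LL-37 replicate 3.

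The other 6 mitochondrially encoded protein genes, which serve complexes III, IV and V and are all read from the heavy strand, were compared next. With all libraries 0 of the 6 passed, none had an unadjusted p under 0.05, and their median log2 change was -0.21, against -0.03 for the complex I members and -0.20 for all tested genes. MT-CO1 and MT-CO2, core subunit genes of cytochrome c oxidase, were at 5268 ± 2064 and 4926 ± 1741 TPM with LL-37 and at 5809 ± 279 and 4878 ± 273 TPM in Ctrl. MT-CO3, of the same complex, was at 2854, 2609 and 1349 TPM in LL-37 and 3297, 2978 and 3092 TPM in Ctrl, so its groups did not overlap and LL-37 was lower (10.3% of tested genes). The ATP synthase genes MT-ATP6 and MT-ATP8, which overlap on the genome, were at 2805 ± 1264 and 4974 ± 2822 TPM with LL-37 and at 2929 ± 74.2 and 4534 ± 895 TPM in Ctrl. MT-CYB was at 1229 ± 547 TPM with LL-37 and 1374 ± 82.8 TPM in Ctrl. Without LL-37 replicate 3 the log2 changes of the 6 were between -0.19 for MT-CO3 and 0.55 for MT-ATP8, with a median of 0.21. Again 0 of them passed the threshold in limma, although all 6 had an unadjusted p under 0.05 (9.01% of tested genes). The groups then did not overlap for any of the 6, with 5 higher and MT-CO3 lower with LL-37 (25.1% of tested genes in either direction). The 2.36 of MT-ND6 lay outside the range of their log2 changes. As MT-ND6 was selected on this contrast, that is no separate finding. All 22 mitochondrial tRNA rows were listed at 0 in every library, including those of the light strand, so the tRNAs beside MT-ND6 gave no value to set against it.

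The nuclear-encoded complex I subunits had lower log2 changes than MT-ND6. MT-ND6 was selected on this contrast and had rank 2 of 14399 tested genes, so that distance is no separate finding. All 37 listed were tested, 0 passed, 0 had an unadjusted p under 0.05, and the smallest adjusted p was 0.739 (limma). Most lists here had this same smallest value after the adjustment over all genes. Neither it nor the 0 calls therefore show an absence of change. Their log2 changes ran from -0.35 to 0.37 over the 6 libraries and from -0.14 to 0.13 when LL-37 replicate 3 was left out. Without overlap between groups, 2 genes were higher with LL-37 and 3 were lower, against 2.13% and 10.3% of tested genes. With that library left out, 3 were higher and 9 lower without overlap, against 12.3% and 12.9% of tested genes. Of the 7 core subunits of the arm that binds NADH, NDUFS3 was at 147 ± 21.4 TPM with LL-37 and 140 ± 3.96 TPM in Ctrl. NDUFS7, which holds an iron-sulfur cluster, was at 73.1 ± 2.82 TPM with LL-37 and 68.8 ± 0.981 TPM in Ctrl. Among the 30 accessory subunits, which surround the core, NDUFA13 and NDUFB7 were the most abundant, at 1082 ± 450 and 527 ± 248 TPM with LL-37 and 868 ± 73.7 and 382 ± 48.7 TPM in Ctrl. Their higher LL-37 means rested on LL-37 replicate 3, at 1602 TPM for NDUFA13 and 810 TPM for NDUFB7. NDUFB8 had 310, 315 and 394 TPM in LL-37 and 289, 287 and 277 TPM in Ctrl, while NDUFA5 had 38.2, 34.8 and 30.3 TPM in LL-37 and 42.3, 39.6 and 38.98 TPM in Ctrl. NDUFB4 was at 177 ± 2.15 TPM with LL-37 and 187 ± 5.73 TPM in Ctrl.

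**Figure D5:**
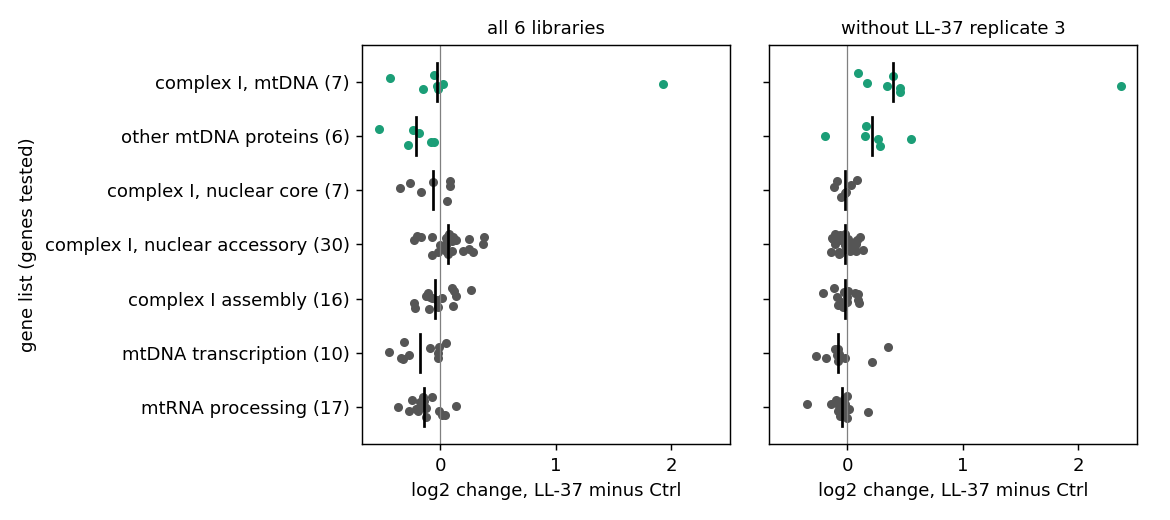
Log2 change (LL-37 minus Ctrl) of each tested gene in 7 lists, with all 6 libraries (left) and without LL-37 replicate 3 (right); points are genes, shifted at random up or down, green for mitochondrially encoded lists, and black lines are list medians. MT-ND6 is the point at 1.92 (left) and 2.36 (right), and the nuclear complex I subunits lie between -0.35 and 0.37 (left) and between -0.14 and 0.13 (right).

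Factors that assemble complex I were tested as a list. Of 16 tested, 0 passed and 0 had an unadjusted p under 0.05 (limma, smallest adjusted p = 0.739), with log2 changes of -0.23 to 0.27. NDUFAF8 was at 132 ± 10.1 TPM with LL-37 and 134 ± 0.660 TPM in Ctrl, and TIMMDC1, an assembly factor of the membrane arm, at 113 ± 10.3 TPM with LL-37 and 103 ± 3.47 TPM in Ctrl. NUBPL, which serves iron-sulfur cluster insertion, was at 4.71, 4.96 and 3.67 TPM in LL-37 and at 5.26, 5.39 and 5.27 TPM in Ctrl. Its groups did not overlap (10.3% of tested genes in that direction). When LL-37 replicate 3 was left out, log2 changes of the list were between -0.21 and 0.10, 0 passed, 1 had an unadjusted p under 0.05, and 3 were lower with LL-37 without overlap (12.9% of tested genes).

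Genes for the transcription and upkeep of mitochondrial DNA were tested as a list of 10, of which 0 passed and 0 had an unadjusted p under 0.05 (limma, smallest adjusted p = 0.739). Their median log2 change was -0.18 over the 6 libraries and -0.08 over 5, with LL-37 replicate 3 left out, against -0.20 and 0.00 for all tested genes. TFAM, the factor that packages mitochondrial DNA and acts at its promoters, was at 19.3, 20.1 and 18.02 TPM in LL-37 and at 23.8, 24.4 and 23.98 TPM in Ctrl. Every LL-37 library lay below every Ctrl library, with a log2 change of -0.32 ± 0.13 in the fit of all libraries and -0.28 ± 0.08 when LL-37 replicate 3 was left out (SE). TFB2M, which opens the promoter for the polymerase, was at 68.2 ± 0.805 TPM with LL-37 and 72.7 ± 1.31 TPM in Ctrl, also without overlap. With all libraries, 10.3% of tested genes were lower with LL-37 without overlap. With LL-37 replicate 3 left out, 0 of the 10 passed, 3 had an unadjusted p under 0.05, and the groups did not overlap for 2 higher (12.3%) and 3 lower (12.9%) genes. Both higher ones, POLG and POLRMT, which encode the polymerases that copy and transcribe mitochondrial DNA, were named after their values were seen, with log2 changes of 0.22 ± 0.09 and 0.35 ± 0.11 in place of -0.32 ± 0.44 and -0.01 ± 0.32 (SE). SSBP1, the single-strand binding protein of mitochondrial DNA, was at 353 ± 42.3 TPM with LL-37 and 356 ± 3.69 TPM in Ctrl.

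Genes that cut, tail, stabilise or degrade mitochondrial RNA were tested as a list of 17, and again 0 passed and 0 had an unadjusted p under 0.05 (limma, smallest adjusted p = 0.739). The groups did not overlap for 3 of them, all lower with LL-37 (10.3% of tested genes). FASTKD3 was at 10.6, 12.8 and 13.8 TPM in LL-37 and at 14.5, 15.9 and 14.9 TPM in Ctrl. MTPAP, the mitochondrial poly(A) polymerase gene, was at 7.86, 7.05 and 6.79 TPM in LL-37 and at 8.23, 8.12 and 8.56 TPM in Ctrl. PNPT1, which encodes a nuclease of the mitochondrial degradosome, was at 18.5 ± 1.11 TPM with LL-37 and 20.5 ± 1.08 TPM in Ctrl. FASTK, known to be needed for MT-ND6 mRNA, was at 55.0, 52.95 and 31.8 TPM in LL-37 and at 43.96, 48.8 and 50.2 TPM in Ctrl. GRSF1, which binds G-rich RNA of the light strand, was at 54.1, 51.9 and 34.97 TPM in LL-37 and at 56.5, 50.7 and 53.7 TPM in Ctrl. With all libraries both overlapped between the groups, with LL-37 replicate 3 lowest. For FASTK the overlap rested on that library, since its other LL-37 libraries lay above every Ctrl library, with a log2 change of 0.18 ± 0.08 in place of -0.07 ± 0.23 (SE). For GRSF1 it was -0.02 ± 0.07 in place of -0.21 ± 0.19, and the groups still overlapped. Of the 17 genes, 0 passed in the fit that left this library out, 1 had an unadjusted p under 0.05, and the groups did not overlap for 1 higher (12.3%) and 3 lower (12.9%) genes. The most abundant of the list, SLIRP, whose product stabilises mitochondrial mRNA, and HSD17B10, which encodes a subunit of the enzyme that cuts tRNAs from the precursors, were at 306 ± 53.5 and 206 ± 37.9 TPM with LL-37 and at 347 ± 14.7 and 186 ± 7.74 TPM in Ctrl.

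Among 9949 nuclear genes with a mean of at least 5 TPM, the 5 whose log2(TPM + 1) followed MT-ND6 most closely over the 6 libraries were IGFBP3 (Pearson's r = 0.981), CHAC1 (0.979), RMEL3 (0.974), SH3D19 (0.973) and ATG101 (0.971). IGFBP3, which encodes a binding protein of insulin-like growth factors, had 163.4, 153.1 and 119.6 TPM in LL-37 and 97.2, 84.1 and 89.99 TPM in Ctrl. CHAC1, a glutathione-degrading enzyme gene, had 22.3, 21.8 and 19.9 TPM in LL-37 and 17.3, 17.3 and 15.6 TPM in Ctrl. Like MT-ND6, both had every LL-37 library above every Ctrl library and LL-37 replicate 3 as the lowest of the LL-37 libraries. Both were picked by their correlation with MT-ND6, so this likeness is no separate observation. The mean of the 6 heavy-strand members was followed by another set, ENSG00000289318, RCAN1, FMNL3, FZD1 and KIFC3 (r = 0.997 to 0.999). RCAN1, a calcineurin regulator gene, was at 79.4, 78.9 and 57.96 TPM in LL-37 and at 75.1, 71.5 and 73.8 TPM in Ctrl. These correlations share the deviation of LL-37 replicate 3 and are the highest of many, so they describe these 6 libraries only.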

How the data were processed

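Stranded mRNA libraries were made from kit-purified RNA, per the labels' protocols, which name keratinocytes as starting material although the labels name A375 cells. The authors deposited 1 human table of TPM, in which each library sums to about 1000000. TPM keeps no read numbers, so the depth of each library is unknown and counting intervals are not given. Per the submitters' processing notes the build was GRCh38. Aligner, quantification tool and strand setting were not given in the sources used here. As TPM is a share, abundant genes that change, or fewer long transcripts, move the values of all others. Symbols came from a gene name table, and FASTKD4 was matched through a RefSeq synonym.

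Groups followed the titles. Genes that reached 1 TPM in 3 or more libraries were tested as log2(TPM + 1) with limma 3.58.1 in R 4.3.3 (intensity trend, two-sided, Benjamini-Hochberg over 14399 genes, threshold 0.05), after a check on simulated data. The members, lists and named genes were chosen with earlier results of these data known. From each nuclear list, the 2 most abundant genes and up to 3 with the largest change and no overlap between groups were named, with FASTK and GRSF1, the 3 most abundant nuclear copies and the 5 nuclear genes most correlated with MT-ND6 or with the mean of the other members. One gene that this rule names is not reported here. MITF, SOX10 and other markers were named after their values were seen. Sequences and lengths came from GENCODE 29 (GRCh38), whose longest transcript gave a length for 13878 tested genes.

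Same-numbered libraries did not visibly deviate together, though groups of this size can hardly decide that. Alternatives were pseudocounts of 0.1 and 5 TPM, a minimum of 5 TPM or none, quantile normalization, median-of-ratios scaling, TPM without mitochondrially encoded genes, a replicate block, no trend, a required log2 change of 1 in size, and each library left out.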

Additional observations from a re-analysis of the deposited data

How the results depend on the processing

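The count of 0 genes past the threshold was 0 to 17 over the libraries left out in turn, and 0 under every other setting run. The 17 came without LL-37 replicate 3. All lists without the members had 0 under every setting run, and calls among the 7 members are not given, because they were selected on these values. The log2 change of MT-ND6 was 1.92 with all libraries, 1.69 to 2.36 over libraries left out, 1.79 to 2.17 under the other settings fixed for it, and 2.13 as a share of the 13 mitochondrial mRNAs, a setting chosen after the data were seen. The log2 ratio of MT-ND6 to the other 6 members was 2.09, and 1.93 to 2.19 over libraries left out, 2.13 with the other 12 mRNAs and 1.99 with the median of the 6 as divisor. The share of TPM taken by mitochondrially encoded genes, LL-37 minus Ctrl, was -0.16 percentage points and -0.63 to 0.64 over libraries left out, turning without LL-37 replicate 3. Under median-of-ratios scaling the median over all genes was 0.01 in place of -0.20, and the log2 change of MT-ND3 was 0.27 in place of 0.02. Same-numbered libraries had correlations of their deviations of 0.09, -0.20 and -0.17. With 3 libraries per group, deviations from a group mean depend on each other, so these values cannot decide whether the numbers are pairs. The series text names no pairing, and the numbers were not taken as pairs. With a replicate block 0 genes passed, and the log2 change of MT-ND6 was 1.92. In these deviations from the group means, no LL-37 library correlated best with the Ctrl library of its own number. For LL-37 replicate 1 the margin was small, at 0.09 with Ctrl replicate 1 and 0.11 with Ctrl replicate 3. TPM without counts leave the precision of low genes unknown.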

Other observations

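The mitochondrial rRNAs, which the same heavy strand encodes ahead of the mRNAs, did not move alike. MT-RNR1, the small rRNA gene, was at 391.7, 397.1 and 278.4 TPM in LL-37 libraries and at 545.6, 447.0 and 439.9 TPM in Ctrl libraries, without overlap (10.3% of tested genes in that direction). MT-RNR2, the large rRNA gene, was at 923.3, 982.8 and 540.7 TPM in LL-37 and at 861.2, 741.3 and 770.0 TPM in Ctrl. For MT-RNR1 the log2 change was -0.44 ± 0.17 over the 6 libraries and -0.27 ± 0.09 when LL-37 replicate 3 was left out. For MT-RNR2 it was 0.00 ± 0.23 and 0.27 ± 0.07 in the same fits (SE), and neither passed the threshold in limma. Libraries selected for poly(A) measure rRNA only in part.

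Among the mRNAs outside complex I, the ratio of MT-CO3 to MT-CO1 was 0.434, 0.412 and 0.467 in LL-37 and 0.546, 0.542 and 0.525 in Ctrl, without overlap. This ratio was chosen after its values were seen, and it was not tested.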
